A study of Mus musculus with 18 samples.

Results

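The stefin A genes of the mouse were examined in RNA-Seq counts of bone marrow-derived macrophages (BMDMs). A search for gene symbols starting with Stfa or Csta matched 8 of the 22852 symbols. Of these, 7 were stefin A genes of a single cluster, namely Csta1, Csta2, Csta3, Stfa1, Stfa2, Stfa2l1 and Stfa3. The symbol left over was Cstad, a gene on chromosome 2 (30485050 to 30501987, GRCm39) that shares the letters but is not a stefin, and it was set aside. It had at most 5 reads in a sample. Csta2, Stfa1, Stfa2, Stfa3 and Stfa2l1 had been listed in advance for their rise after LPS in these same data, so the genes had been selected on the contrasts of LPS-primed with unstimulated and of LPS-tolerant with LPS-stimulated BMDMs. Values of the members in those contrasts are therefore given as a description, without a test.

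All cells came from C57BL/6 mice, with bone marrow cultured for 7 days in L929-conditioned medium, and each of the 6 groups had 3 biological replicates. The groups were unstimulated BMDMs, LPS-primed BMDMs (100 ng/ml LPS for 24 h), LPS-tolerant BMDMs (100 ng/ml for 24 h, then fresh medium with 10 ng/ml for 3 h) and LPS-stimulated BMDMs (10 ng/ml for 3 h, with no priming). A further group of LPS-primed and another of LPS-tolerant BMDMs had received 25 µM carboplatin, a platinum drug that crosslinks DNA, 1 h before the first LPS. The methods call the replicates biological, and the labels do not say whether they were separate mice or cultures. The p values therefore judge differences only against the variation among these samples.

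Stefins are the intracellular branch of the cystatins, small proteins that block papain-like cysteine proteases by inserting a conserved wedge into the active site. Their targets include the lysosomal cathepsins B, H, L and S, and stefins are thought to guard the cytosol against cathepsins that leak from lysosomes. Humans carry a single stefin A gene, CSTA, whereas the gene has been duplicated repeatedly in mice. In mice, stefin A transcripts are best known from the myeloid lineage, above all neutrophils and their precursors, and from skin.

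The 7 genes lay within 335.6 kb of chromosome 16 (35940316 to 36275884, GRCm39, GENCODE vM39). This interval also held the related genes Cstdc4, Cstdc5 and Cstdc6 and the pseudogene Cstdc3, which the search by symbol did not match. Csta2 (36041838 to 36077813) was on the plus strand in the middle of the cluster, and Stfa3 (36270893 to 36275884) was on the minus strand at its far end. Stfa1, Stfa2l1 and Csta3 were on the plus strand, and Stfa2 and Csta1 on the minus strand. The members' longest annotated coding sequences were alike, so reads could be hard to assign. The coding sequence of Csta2 was 96.9% identical to that of Cstdc4 and 84.9% to that of Stfa3, and Stfa2 and Stfa2l1 were 96.4% identical. Among 100-base windows of the annotated transcripts, 44 of 871 windows of Csta2 (5.05%) also occurred in another gene of the cluster, Cstdc4, and none of the 810 windows of Stfa3 did. Stfa1 shared 2.16% of its windows, mostly with Cstdc5. HTSeq-count leaves out a read pair placed at several loci by default, and 4.21% to 5.18% of all pairs in a sample were set aside as not uniquely aligned. Counts of Csta2 and Cstdc4 were therefore uncertain by an unknown amount, since how many of their reads were set aside could not be read from the counts. Neither the share of windows nor that of all pairs measures this amount.

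The upstream sequences are shown because they are where members that were read and members that were hardly read can be compared base by base. Each line gives the 250 bases before a transcript start, 5′ to 3′ on the gene's own strand. Apart from the second line, the start is that of RefSeq, whose windows each occurred once on chromosome 16 of GRCm39. Csta2 had distant transcript starts in GENCODE, at 36041838 and 36073368, so the sequence before the inner one is given as well, read from GRCm39. Capitals mark matches to any of 7 fixed motifs on either strand, and the letters TTTAAAA on the gene's strand. The last of these was added after the sequences were seen. GENCODE exons of the same gene covered part of every window printed here except that of the inner start, namely 197 of the 250 bases for Stfa1, 130 for Stfa3, 99 for Cstdc4, 94 for the outer one of Csta2 and 5 for Stfa2l1.
Csta2, outer start, chr16:36041682-36041931, plus strand: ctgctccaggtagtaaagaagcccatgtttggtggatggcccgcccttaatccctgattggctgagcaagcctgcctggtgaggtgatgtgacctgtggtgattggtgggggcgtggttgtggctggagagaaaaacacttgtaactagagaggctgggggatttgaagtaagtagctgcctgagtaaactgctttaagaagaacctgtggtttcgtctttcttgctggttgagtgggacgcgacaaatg
Csta2, inner start, chr16:36073118-36073367, plus strand: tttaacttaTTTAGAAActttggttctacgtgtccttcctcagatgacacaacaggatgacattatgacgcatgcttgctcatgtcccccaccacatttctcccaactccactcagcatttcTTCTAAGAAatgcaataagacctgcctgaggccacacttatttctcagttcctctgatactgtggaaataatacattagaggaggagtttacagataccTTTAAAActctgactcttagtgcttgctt
Cstdc4, chr16:36004332-36004581, plus strand: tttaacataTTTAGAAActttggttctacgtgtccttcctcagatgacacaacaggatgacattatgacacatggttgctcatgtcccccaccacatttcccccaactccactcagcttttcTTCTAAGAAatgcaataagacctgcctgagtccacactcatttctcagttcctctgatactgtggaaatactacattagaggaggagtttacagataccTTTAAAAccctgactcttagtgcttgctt
Stfa3, chr16:36275755-36276004, minus strand: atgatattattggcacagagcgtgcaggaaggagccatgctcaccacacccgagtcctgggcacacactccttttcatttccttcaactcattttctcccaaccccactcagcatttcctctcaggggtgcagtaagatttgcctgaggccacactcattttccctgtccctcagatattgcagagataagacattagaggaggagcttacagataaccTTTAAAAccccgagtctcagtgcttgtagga
Stfa1, chr16:36097260-36097509, plus strand: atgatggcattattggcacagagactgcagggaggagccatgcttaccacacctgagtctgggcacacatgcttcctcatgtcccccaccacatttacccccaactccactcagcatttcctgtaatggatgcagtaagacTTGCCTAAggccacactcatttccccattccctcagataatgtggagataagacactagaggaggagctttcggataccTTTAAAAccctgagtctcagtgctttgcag
Stfa2l1, chr16:35976931-35977180, plus strand: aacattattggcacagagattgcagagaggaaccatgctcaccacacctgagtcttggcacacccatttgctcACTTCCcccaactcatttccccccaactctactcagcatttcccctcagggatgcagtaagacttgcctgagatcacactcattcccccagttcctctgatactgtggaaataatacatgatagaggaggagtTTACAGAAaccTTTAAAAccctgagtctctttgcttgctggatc

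The inner Csta2 window, with 50 bases after the start included, was 97.0% identical to that of Cstdc4, and 50.4% identical to the outer Csta2 window. The outer window held no match to any motif searched. The Stfa3 window was 82.8% identical to that of Stfa1 and 83.1% to that of Stfa2l1, genes with very different counts. TTTAAAA began 29 bases before the inner start of Csta2 and the start of Cstdc4, 31 bases before that of Stfa3, 30 before that of Stfa1 and 33 before that of Stfa2l1. In windows not printed, it began 29 bases before the start of Stfa2, 77 before that of Csta3 and 9 before that of Cstdc5. The outer Csta2 window and that of Csta1 did not hold it. Of 32851 RefSeq promoters of the same length (250 bases before the start and 50 after), 5.76% held TTTAAAA on the gene's strand. A C/EBP-like match (TTNNGNAA, in 40.7% of promoters) was found in the windows of Stfa1 and Stfa2l1, in the inner window of Csta2 and in that of Cstdc4. Stfa3 had no C/EBP-like match. The inner Csta2 window and that of Cstdc4 also held a STAT-like match (TTCNNNGAA, in 8.30% of promoters), 128 to 120 bases before the start. Stfa2l1 held a PU.1-like match (GGAAGT, 23.8%), and Stfa3 an AP-1-like match (TGANTCA, 7.81%) 30 to 36 bases after its start, outside the bases shown. None of the 6 windows printed here held a match to the NF-kB motif GGNNNTTCC (18.5%), the ISRE motif GAAANNGAA (8.56%) or TATAAA (13.6%). These are matches of letters, and the counts per gene do not say from which start a transcript came.

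Csta2 and Stfa3 supplied nearly all stefin A reads. In the 12 samples that had received 100 ng/ml LPS first, Csta2 had 6261 reads in all, 73.7% of the 8499 reads of the 7 genes, and Stfa3 had 2197, or 25.9%. Per kilobase of annotated exon these shares were 69.4% and 30.2%. The other 5 genes had from 1 to 18 reads summed over the 12 samples. Stfa1 had 18 reads in 5 samples, Csta3 had 10 in 4, Stfa2 had 7 in 2, Stfa2l1 had 5 in 2, and Csta1 had 1. No sample held more than 8 reads of Stfa1, 6 of Stfa2 or 4 of Stfa2l1 or Csta3, and none of these 5 genes had a read in the 6 samples without priming. A count of 0 in a sample allowed up to 3 reads, which was 0.204 to 0.437 CPM (counts scaled to library size). Of the 7 members, therefore, only Csta2 and Stfa3 passed the expression filter of edgeR (11305 genes tested), and their passing depended on the groups where they were high.

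**Figure D1:**
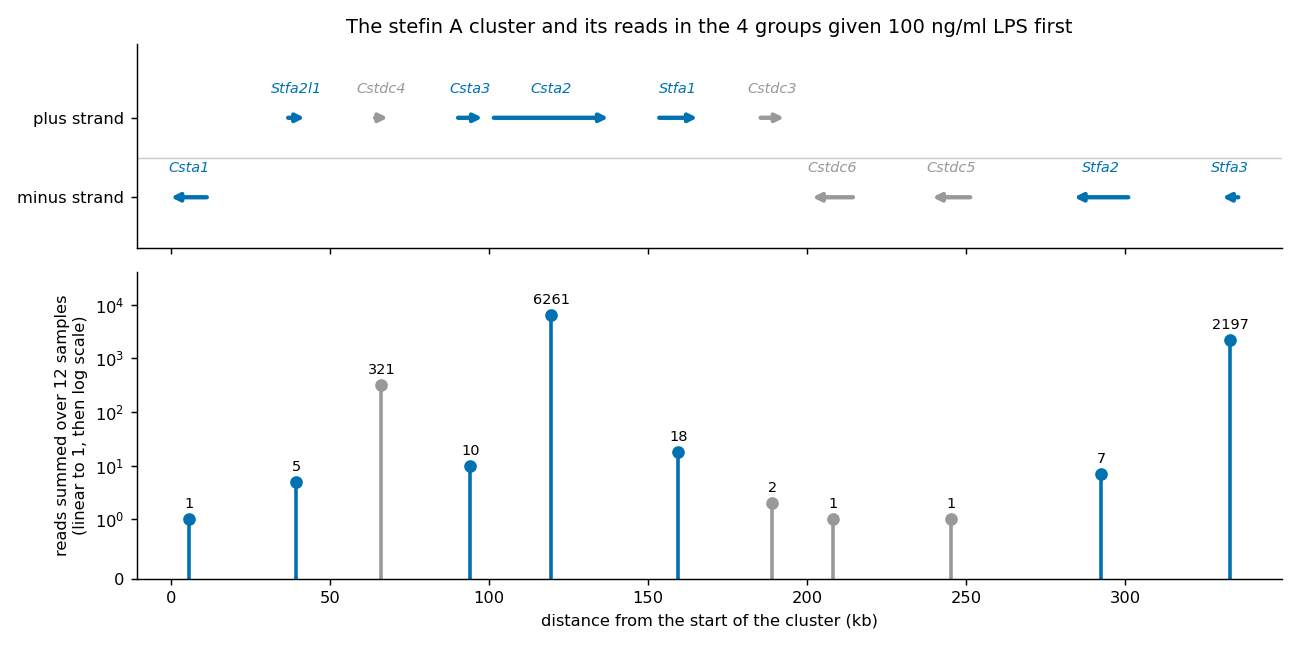
Map of the stefin A cluster. The upper panel shows each gene as an arrow in its direction of transcription against the distance from the cluster start in kb, with genes matched by symbol in blue and related genes in grey. The lower panel shows reads summed over the 12 samples first given 100 ng/ml LPS, on a scale that is linear to 1 and logarithmic above. Csta2 (6261) and Stfa3 (2197) stand over their neighbours, and Cstdc4 (321) is the only grey gene above 2 reads.

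Csta2 was close to absent without priming and abundant after it. Unstimulated samples had 1, 0 and 0 reads in replicates 1, 2 and 3, and LPS-stimulated samples had 1, 4 and 3. LPS-primed samples had 838, 124 and 255 reads, and LPS-tolerant samples had 1492, 328 and 740. With carboplatin, LPS-primed samples had 669, 220 and 328 reads, and LPS-tolerant samples had 628, 217 and 422. Every one of the 12 primed samples lay far above all 6 unprimed ones, and the 4 primed groups overlapped one another.

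After scaling for library size, the mean level of Csta2 was 422 ± 405 normalized counts in LPS-primed BMDMs, 480 ± 372 in LPS-primed BMDMs with carboplatin, 978 ± 825 in LPS-tolerant BMDMs and 486 ± 301 in LPS-tolerant BMDMs with carboplatin (mean ± SD, n = 3 in each group). The means in unstimulated and LPS-stimulated BMDMs were 0.319 ± 0.552 and 2.31 ± 0.969. In order of mean level the groups ran from unstimulated through LPS-stimulated, LPS-primed, LPS-primed with carboplatin and LPS-tolerant with carboplatin to LPS-tolerant. The first 2 groups had no sample above 2.96 normalized counts, where a count of 0 allows 2.08 to 4.05, depending on the library. LPS-stimulated replicate 2, at 2.77, was above the 2.08 of its own library. Whether these 2 groups differed could not be settled at this depth. From LPS-stimulated to LPS-primed the levels were set apart, and each later neighbour overlapped the one before it.

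Stfa3 followed the same groups at a lower level. It had no read in the unstimulated samples and 0, 0 and 1 in the LPS-stimulated samples. LPS-primed samples had 241, 7 and 64 reads, and LPS-tolerant samples had 724, 47 and 383. With carboplatin the reads were 230, 18 and 73 in LPS-primed samples and 254, 16 and 140 in LPS-tolerant samples. The 12 primed samples again lay above the 6 unprimed ones, although replicate 2 of the LPS-primed group had only 7 reads. In normalized counts the means were 108 ± 130 in LPS-primed BMDMs, 134 ± 156 with carboplatin, 451 ± 441 in LPS-tolerant BMDMs and 160 ± 160 with carboplatin (mean ± SD, n = 3). The order of these 4 means was that of Csta2, and the groups overlapped.

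**Figure D2:**
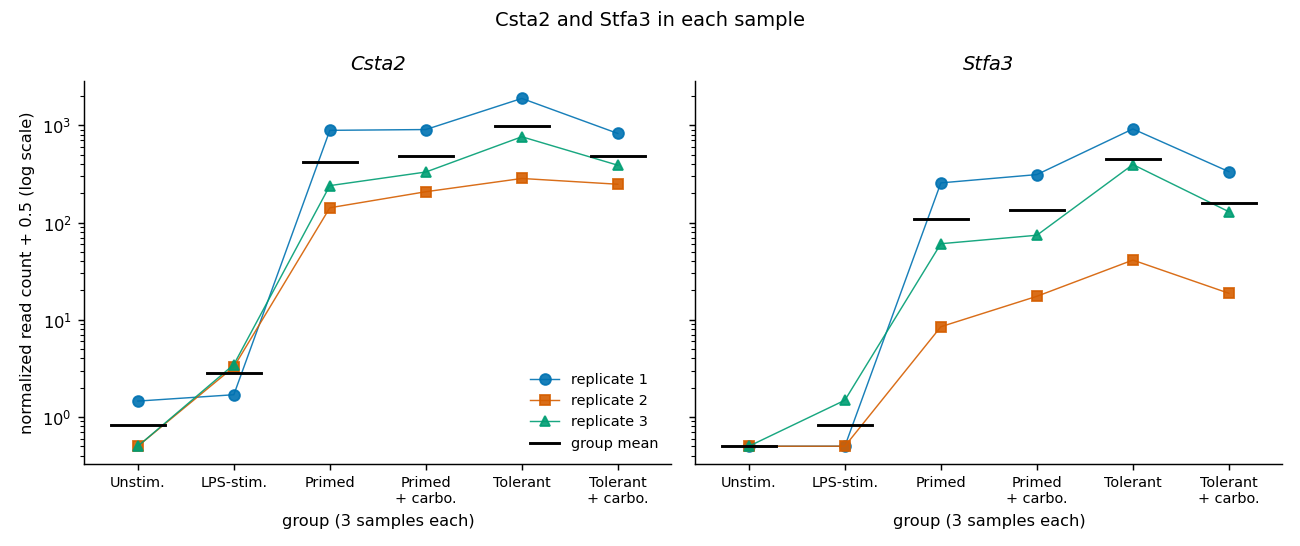
Csta2 (left) and Stfa3 (right) in each of the 18 samples, as normalized read count plus 0.5 on a log scale, by group. Coloured points are samples, lines join samples that carry the same replicate number, and black bars are group means. The 4 groups first given 100 ng/ml LPS lie above the other groups, and replicate 1 is highest and replicate 2 lowest in each of these 4 groups for both genes.

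In the contrasts that had chosen the genes, the log2 fold change (log2FC) fitted by edgeR for LPS-primed against unstimulated BMDMs was 9.97 (SE 1.41) for Csta2 and 9.75 (SE 2.75) for Stfa3. These values rest on almost no reads in the control group. The 1217 reads of Csta2 against 1 gave a ratio of 1420, with a 95% interval of 254 to 56100 that covers counting error only. For Stfa3, against 3 reads per unstimulated library as the upper limit of a count of 0, LPS-primed BMDMs were at least 40.1-fold higher, a bound that was 12.7 without LPS-primed replicate 1. For LPS-tolerant against LPS-stimulated BMDMs the log2FC was 8.59 (SE 1.12) for Csta2 and 10.03 (SE 2.20) for Stfa3. The reads there were 2560 against 8 for Csta2, a ratio of 362 (183 to 838), and 1154 against 1 for Stfa3, a ratio of 1300 (234 to 51500). At an adjusted p under 0.05 and |log2FC| over 2, 3.41% of the tested genes were called higher and 4.07% lower in LPS-primed than in unstimulated BMDMs. In LPS-tolerant against LPS-stimulated BMDMs, 2.97% were called higher and 5.07% lower. In bulk RNA, a larger share of cells that transcribe a gene and more RNA per cell cannot be told apart.

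The same 10 ng/ml for 3 h that followed priming in LPS-tolerant BMDMs left stefin A near 0 when it was given alone. LPS-stimulated samples held 8 reads of Csta2 and 1 of Stfa3 over all 3 libraries, against 1 and 0 in unstimulated samples. Counts of 0 to 4 reads in a library lie around the 3 reads that a count of 0 allows, so no fold change is given. The test across all genes says little at these counts. By edgeR the adjusted p of Csta2 was 0.464, with the replicate block described below it was 0.0527, and with the block and without replicate 1 of every group it was 0.0161, which passed. For Stfa3 it was 0.813, 0.274 and 0.296. In this comparison 12% of the tested genes were called without the block.

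LPS-tolerant BMDMs had more Csta2 and Stfa3 than LPS-primed BMDMs in each same-numbered pair. The ratio for Csta2 was 2.13 in replicate 1, 2 in replicate 2 and 3.18 in replicate 3, with 0.5 added to both normalized counts. For Stfa3 the ratios were 3.59, 4.85 and 6.52. In the fit of all 18 samples, the log2FC was 1.21 (SE 0.69, 95% interval -0.25 to 2.66) for Csta2 and 2.06 (SE 1.17, -0.45 to 4.56) for Stfa3. Neither passed (edgeR, adjusted p = 0.341 and 0.346), and unadjusted p values were 0.0977 and 0.1. By this fit, 0.681% of the tested genes were called.

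Same-numbered samples deviated together from their group means across genes, so a second fit took the replicate number as a blocking factor and compared samples within each number. The block barely moved the log2FC but narrowed its error, which then left out the spread between replicate numbers. Stfa3 then had a log2FC of 2.22 (SE 0.24, 95% interval 1.71 to 2.74, adjusted p = 1.8e-05) and was called higher in LPS-tolerant BMDMs. Csta2 had a log2FC of 1.25 (SE 0.20, 0.82 to 1.68, adjusted p = 3.8e-04), a change under the limit of 2. With the block, 0.955% of the tested genes were called. Without replicate 1 in any group, the blocked log2FC of Stfa3 was 2.57 (adjusted p = 6.4e-04), so the call did not rest on the replicate with the highest counts. Without replicate 3 it was under 2, at 1.91 (adjusted p = 0.0041), and the call was lost, as it was without LPS-tolerant replicate 3 alone (1.98, adjusted p = 3.1e-04).

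**Figure D3:**
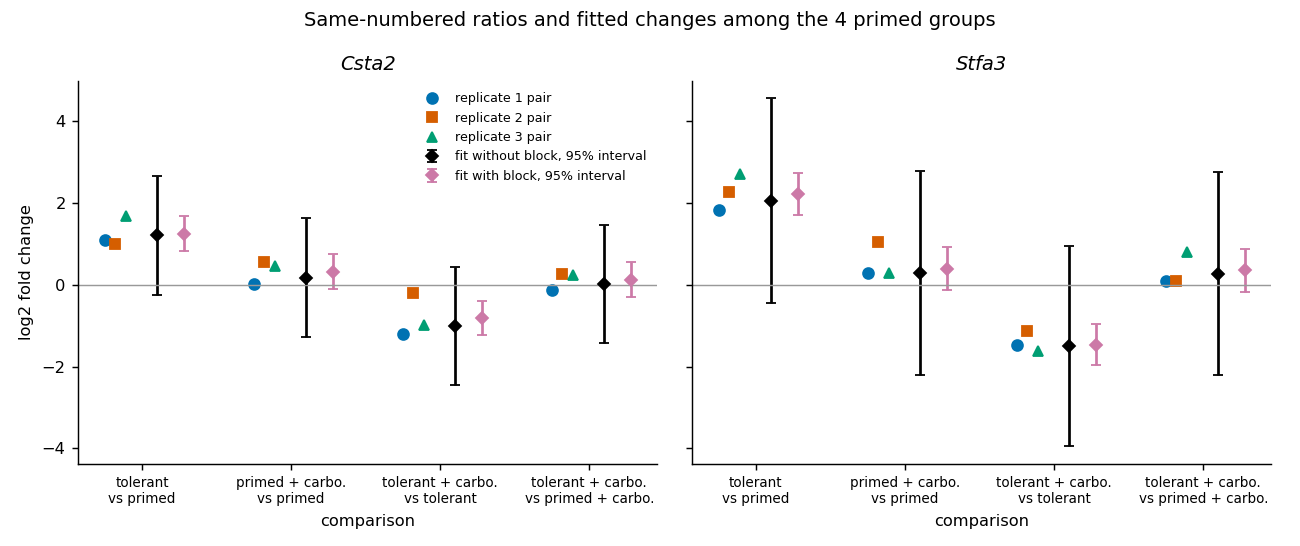
Changes of Csta2 (left) and Stfa3 (right) on the log2 scale in 4 comparisons among the groups first given 100 ng/ml LPS. Coloured symbols are log2 ratios of same-numbered samples, and diamonds with bars are edgeR log2FC with 95% intervals, in black without and in pink with the replicate block. LPS-tolerant samples lie above LPS-primed ones in 3 of 3 pairs, tolerant samples with carboplatin below tolerant ones in 3 of 3, and the black intervals all include 0.

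With carboplatin, both genes were lower in each pair of LPS-tolerant samples and higher in each pair of LPS-primed samples, and none of these differences passed the limits for a call. In LPS-tolerant BMDMs, samples with carboplatin had 0.436, 0.872 and 0.509 times the Csta2 of their same-numbered controls and 0.364, 0.455 and 0.327 times the Stfa3. The log2FC was -1.01 (SE 0.69, 95% interval -2.46 to 0.44) for Csta2 and -1.50 (SE 1.15, -3.95 to 0.95) for Stfa3. Neither was called (edgeR, adjusted p = 0.951 and 0.995), where 0.389% of the tested genes were called at an adjusted p under 0.25 and |log2FC| over 2. With the block the values were -0.81 (SE 0.20, adjusted p = 0.0467) and -1.47 (SE 0.23, adjusted p = 0.0030). Both passed the limit on p, as did 6.93% of the tested genes, and neither that on the size of the change. Both limits together were passed by 0.725% of the tested genes.

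In LPS-primed BMDMs the ratios with carboplatin were 1.02, 1.46 and 1.38 for Csta2 and 1.22, 2.06 and 1.22 for Stfa3. The log2FC was 0.18 (SE 0.69, -1.27 to 1.62) for Csta2 and 0.28 (SE 1.17, -2.21 to 2.78) for Stfa3, with an adjusted p of 0.993 for both by edgeR. In this comparison, 0.265% of the tested genes were called. The intervals allowed more than a 2-fold change in either direction, and without replicate 1 of the carboplatin group the sign turned, to -0.65 and -1.26. These values came from fits without the block, where leaving out 1 sample takes its pair apart. With the block the log2FC was 0.32 (SE 0.20, -0.11 to 0.75) for Csta2 and 0.40 (SE 0.25, -0.14 to 0.93) for Stfa3. Neither was called (edgeR, adjusted p = 0.529 and 0.525).

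The difference between both carboplatin effects was -1.19 (SE 0.97, -3.23 to 0.86) for Csta2 and -1.78 (SE 1.64, -5.27 to 1.71) for Stfa3, and edgeR gave an adjusted p of 1 for both. In that fit 0% of the tested genes passed at an adjusted p under 0.25, 131 had an unadjusted p under 0.05, and DESeq2 also called 0. With the block over all 18 samples the differences were -1.13 (SE 0.29) and -1.86 (SE 0.34), with unadjusted p values of 9.8e-04 and 6.2e-05, adjusted p values of 1 and 0.704, and again 0% of genes called. Fitted with the block to the 12 primed samples alone, a setting chosen after the data were seen, the differences were -1.15 (SE 0.23, adjusted p = 0.167) and -1.87 (SE 0.29, adjusted p = 0.041). Both genes were then among the 7 called, 0.0644% of the 10864 tested in that fit.

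LPS-tolerant and LPS-primed BMDMs that had both received carboplatin had similar mean levels of these genes. The ratios were 0.911, 1.19 and 1.17 for Csta2 and 1.07, 1.07 and 1.75 for Stfa3. The log2FC was 0.02 (SE 0.68, -1.42 to 1.47) and 0.28 (SE 1.16, -2.20 to 2.75), with adjusted p values of 0.997 and 0.958 by edgeR, where 0.265% of the tested genes were called. These intervals do not exclude a change of the size seen without carboplatin.

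The spread between replicates was wide and ordered alike in the 4 primed groups. Replicate 1 had 6.26, 4.36, 6.66 and 3.33 times the Csta2 of replicate 2 in LPS-primed BMDMs, LPS-primed BMDMs with carboplatin, LPS-tolerant BMDMs and LPS-tolerant BMDMs with carboplatin. For Stfa3 the ratios were 30.2, 17.9, 22.3 and 17.8. In all 4 groups and for both genes, replicate 3 lay between the other two. The same order in all 4 groups was found for 340 of the 11305 tested genes (3.01%). A ratio of replicate 1 to replicate 2 of at least 3.33 in every one of the 4 groups, the smallest that Csta2 showed, was found for 41 genes (0.363%). At 17.8, the smallest of Stfa3, no other tested gene was left.

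The share of Stfa3 among Csta2 and Stfa3 reads, which does not depend on library size, also differed by replicate and state. In LPS-primed BMDMs it was 22.3%, 5.34% and 20.1% in replicates 1, 2 and 3, and in LPS-tolerant BMDMs it was 32.7%, 12.5% and 34.1%. With carboplatin it was 25.6%, 7.56% and 18.2% in LPS-primed and 28.8%, 6.87% and 24.9% in LPS-tolerant BMDMs. Replicate 2 had the lowest share in each group. LPS-tolerant samples were above LPS-primed ones by 10.5 ± 3.43 percentage points (mean ± SD of 3 pairs), and tolerant samples with carboplatin were below tolerant ones by 3.87 to 9.19 points in 3 of 3 pairs. With 3 pairs an exact permutation test cannot give a p under 0.25, which is the value that both differences reached (two-sided). For replicates 1 and 3 the 95% Wilson intervals of LPS-primed (20% to 24.9% and 16% to 24.8%) and LPS-tolerant samples (30.8% to 34.7% and 31.4% to 36.9%) did not overlap, whereas those of replicate 2 (2.61% to 10.6% and 9.56% to 16.3%) did. These intervals cover counting error only.

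**Figure D4:**
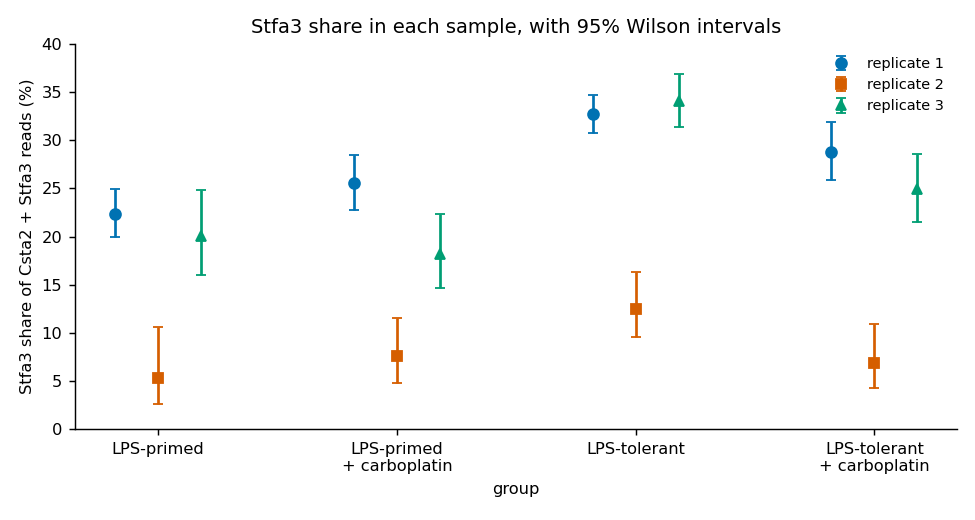
Share of Stfa3 among Csta2 and Stfa3 reads in percent, for each sample of the 4 groups first given 100 ng/ml LPS, with 95% Wilson intervals for counting error. Colours and shapes mark the replicate number. Replicate 2 lies between 5.34% and 12.5%, replicates 1 and 3 between 18.2% and 34.1%, and in each number the LPS-tolerant sample is the highest.

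Cstdc4, the close relative of Csta2 in the cluster, was read mostly in replicate 1. It had 77, 0 and 4 reads in LPS-primed samples, 46, 5 and 2 with carboplatin, 118, 0 and 12 in LPS-tolerant samples, and 53, 0 and 4 with carboplatin. All 6 unprimed samples had 0. With 3 reads per control library as the limit, LPS-primed BMDMs were at least 10.6-fold above unstimulated ones, and LPS-tolerant BMDMs at least 18.8-fold above LPS-stimulated ones. Both bounds rest on replicate 1. Without it the first was lost, since the mean of the other two fell below that limit, and the second was 2.15. No test is given for Cstdc4 in these comparisons, because it passed the expression filter only through the primed groups.

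Other cystatins showed smaller differences, Cstdc4 aside. A list of 29 symbols had 22 in the counts, of which 12 had no read in any sample and 4 were tested, Cst3, Cst7, Cstb and Cstdc4. Cstdc4 is described above. None of the other three was called by edgeR or DESeq2 in LPS-primed against unstimulated BMDMs, with or without the block in edgeR. Cstb, the gene of stefin B and the other stefin found in most cells, was at 0.60 in log2FC (SE 0.17, adjusted p = 0.0173), and Cst3, which encodes the secreted cystatin C, at -0.93 (SE 0.17, adjusted p = 6.3e-04). Cst7, the gene of the endolysosomal cystatin F, had 1.22 (SE 0.64, adjusted p = 0.185). In LPS-stimulated against unstimulated BMDMs, Cst7 rose by a log2FC of 2.10 (SE 0.63, adjusted p = 0.0109). Cst7, Cstb and Cst3 were not called in LPS-tolerant against LPS-stimulated BMDMs by edgeR.

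The proteases of the family that stefins inhibit were examined next. Of 10 cysteine cathepsin genes, 9 were tested and none was called by edgeR or DESeq2 in LPS-primed against unstimulated BMDMs, where 6 had an unadjusted p under 0.05. At the adjusted p alone, 4 were higher and 1 lower, where 25.2% of all 11305 tested genes passed and 4053 had an unadjusted p under 0.05. Ctsc, which activates granule serine proteases, stood at 1.78 in log2FC (SE 0.24, adjusted p = 2.9e-05), and Ctsl, a lysosomal endopeptidase, 1.70 (SE 0.34, adjusted p = 0.0012). Ctsh had 0.95 (SE 0.13, adjusted p = 3.7e-05), Ctsz 0.95 (SE 0.21, adjusted p = 0.0027) and Ctsf -1.80 (SE 0.24, adjusted p = 2.9e-05). The log2FC of Ctsb and Ctss were -0.34 (SE 0.14, adjusted p = 0.0965) and -0.10 (SE 0.16, adjusted p = 0.702). In LPS-tolerant against LPS-stimulated BMDMs none was called either, 7 had an unadjusted p under 0.05, and at the adjusted p alone Ctsl (1.77), Ctsk (1.53), Ctsh (0.96) and Ctsc (0.78) were higher and Ctsf (-1.51) lower. Of all tested genes, 34.5% passed the adjusted p there, and 4912 had an unadjusted p under 0.05. In LPS-tolerant against LPS-primed BMDMs none of the 9 was called or passed the adjusted p without the block, and 1 had an unadjusted p under 0.05. With the block, Ctsk (0.61, adjusted p = 0.022), Ctsl (0.33, adjusted p = 0.0231) and Ctso (-0.48, adjusted p = 0.0295) passed the adjusted p by edgeR, as did 18% of all tested genes, and none passed the limit on log2FC. Over the 9 tested cathepsins the middle log2FC for LPS-primed against unstimulated BMDMs was 0.13, beside -0.02 over all tested genes.

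Inhibitors of other proteases included several with large changes. Of 12 genes listed, 10 were tested, and 7 were called higher and none lower in LPS-primed than in unstimulated BMDMs without the block. Over all tested genes, 3.41% were called higher and 4.07% lower. With the block, Serpinb1a was called lower as well (-2.46, adjusted p = 0.0013 by edgeR), as were 4.25% of the tested genes. The 4 with the largest log2FC were Serpinb2 (8.58, SE 0.86), which inhibits plasminogen activators, Slpi (7.37, SE 0.85), an inhibitor of neutrophil serine proteases, Timp1 (6.76, SE 1.30), an inhibitor of matrix metalloproteinases, and Wfdc21 (5.93, SE 0.90). The adjusted p values by edgeR were 1.2e-06, 5.5e-06 and 8.7e-04 for Serpinb2, Slpi and Timp1. Wfdc21 had 1 read in all over the unstimulated samples and 1 over the LPS-stimulated samples, against 9 to 49 in a primed sample. Wfdc21 is counted among the calls, but it passed the expression filter only through the primed groups, so no p value is given for it. In LPS-tolerant against LPS-stimulated BMDMs, Slpi (7.06, SE 0.79, adjusted p = 3.2e-06), Serpinb2 (4.93, SE 0.66, adjusted p = 2.3e-05) and Wfdc21 (6.44, SE 0.89, with the same limit) were called higher. Serpinb1a, which inhibits neutrophil elastase, was called lower, with a log2FC of -4.33 (SE 0.91, adjusted p = 0.0013 by edgeR). In that comparison, 2.97% of all tested genes were called higher and 5.07% lower. Over the 10 tested inhibitors the median log2FC was 3.2 in LPS-primed against unstimulated BMDMs, beside -0.02 over all tested genes. The list was chosen with earlier results of these data known, so these values describe its genes and do not test protease inhibitors as a class.

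The 5 tested genes most like Csta2 across the 18 samples, by Pearson's r of log2(CPM + 0.5), were Arg1 (0.991), Slpi (0.986), Clec4n (0.981), Tmem119 (0.973) and Pilra (0.972). Arg1 encodes arginase 1 and Clec4n the fungal receptor Dectin-2. Arg1 went from 33.8 ± 10.9 normalized counts in unstimulated to 21170 ± 18520 in LPS-primed and 26570 ± 19720 in LPS-tolerant BMDMs, and it was at 61.4 ± 30.3 in LPS-stimulated BMDMs (mean ± SD, n = 3). Slpi had 6.11 ± 3.87, 1010 ± 676, 2174 ± 1275 and 17.1 ± 8.98 in the same groups. For Stfa3 the 5 genes were Slc27a4 (0.958), Lrpap1 (0.957), Acpp (0.957), Prdx6 (0.950) and Mmp8 (0.945). Csta2 and Stfa3 themselves correlated at 0.935 (Spearman's rho 0.965). The names depend on the measure. With Spearman's rho in place of r, 1 of the 5 genes was still among the 5 most like Csta2 and 1 among those most like Stfa3, and with 2 CPM added in place of 0.5 it was 3 and 2. These values describe 18 points that share 6 groups and fall into unprimed and primed samples.

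With group means taken out, over the 12 primed samples, the genes most like Csta2 were Cxcl3 (0.993), Srgn (0.993), Uba1 (0.992), Cxcl2 (0.991) and Cxcl1 (0.988). Cxcl1, Cxcl2 and Cxcl3 encode chemokines that attract neutrophils, and Srgn the granule proteoglycan serglycin. Unlike Csta2, Cxcl2 was already at 12130 ± 3358 normalized counts in LPS-stimulated BMDMs, above its 2669 ± 1366 in LPS-primed ones. The genes most like Stfa3 in this sense were Spp1 (0.995), Ptgr1 (0.992), Arg1 (0.992), Prdx6 (0.991) and Igfbp7 (0.991). Spp1, which encodes osteopontin, had 31830 ± 20430 normalized counts in unstimulated and 7145 ± 3918 in LPS-primed BMDMs, so it resembled Stfa3 in its order of replicates and not in its response to LPS. With Spearman's rho, 2 of the 5 were shared for each gene, and with 2 CPM added 5 for Csta2 and 3 for Stfa3. Csta2 and Stfa3 correlated at 0.959 over these 12 samples, which share 3 replicate numbers.

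Since stefin A transcripts are known from neutrophils, markers of other cell types were counted. The macrophage markers were abundant in every sample, with a sum over 9 genes of 143000 to 306000 normalized counts. Of 12 defining neutrophil markers, Ly6g, Mpo, Retnlg and Fcnb had no read in any of the 18 samples. All 12 summed to 56.4 to 70.9 normalized counts per sample in unstimulated and 31 to 60.2 in LPS-stimulated BMDMs. These sums were 194 to 1670 in LPS-primed and 336 to 2610 in LPS-primed BMDMs with carboplatin. They were 280 to 2000 in LPS-tolerant and 387 to 2170 in LPS-tolerant BMDMs with carboplatin. Without Mmp8, the other 11 summed to 5.74 to 25.8 normalized counts per sample in unstimulated BMDMs, 10.3 to 26.5 in LPS-primed, 16 to 35.2 in LPS-primed with carboplatin, 16.4 to 37.1 in LPS-tolerant, 14.8 to 57.7 in LPS-tolerant with carboplatin and 1.38 to 11.9 in LPS-stimulated BMDMs. Except in LPS-tolerant BMDMs, Stfa3 in replicate 2 of the primed groups lay in the range of its group's sums without Mmp8 or below it. It was at 7.98 normalized counts in LPS-primed BMDMs and at 16.9 and 18.2 with carboplatin in LPS-primed and LPS-tolerant BMDMs. In LPS-tolerant BMDMs it was at 40.6, above the highest sum without Mmp8 of that group. The lowest Csta2 value of the 4 primed groups was 141.3, above their sums without Mmp8 and below their sums with it. Mmp8, which encodes neutrophil collagenase, was higher after priming, as the stefins were. With carboplatin in LPS-tolerant BMDMs its mean was higher (1388 ± 906 against 1062 ± 857 normalized counts, mean ± SD, n = 3, not called). Those of Csta2 and Stfa3 were lower there. The log2FC of Mmp8 was 4.09 (SE 0.95, adjusted p = 0.0038 by edgeR) in LPS-primed against unstimulated BMDMs, with 183 to 1639 normalized counts in LPS-primed and 30.6 to 61.5 in unstimulated samples. Lcn2, Mmp9 and S100a8, of a wider list of 20 neutrophil genes, were called higher as well, with log2FC of 8.20, 5.74 and 4.55, while S100a9 had at most 8 reads in a sample and Cxcr2 none. The 6 keratinocyte markers, with 3 at 0 in all 18 samples, summed to at most 29.5 normalized counts in a sample, and the lists for basophils and mast cells, dendritic cells, B cells, and T and NK cells to at most 13.1, 15.2, 17.3 and 4.05. The 5 eosinophil markers, 3 of them at 0, were highest in LPS-stimulated samples, at 212 to 535, where stefin A was near 0. The part of these markers in the levels of Csta2 and Stfa3 was not tested.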

How the data were processed

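RNA from 18 BMDM samples, 3 for each of 6 groups taken from the sample labels, was sequenced from stranded mRNA libraries. Per the submitters' processing notes and methods, reads were aligned to GRCm39 with HISAT2 and counted per gene with HTSeq-count, and the authors deposited these raw counts without normalization. Versions, annotation and strand option are not given in the sources used here. Each sample had 6869667 to 14708099 pairs assigned to genes. Of all pairs, 41.5% to 46.9% were assigned to no gene, among them those not uniquely aligned, and were left out. Library size limits precision for genes under about 10 reads.

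Counts were fitted with edgeR 4.0.16 (R 4.3.3) in a fit of all 18 samples, with TMM scaling, the default filter (minimum count 10, minimum total 15), a prior count of 0.125 and quasi-likelihood F tests adjusted by Benjamini and Hochberg over the 11305 tested genes. Calls needed |log2FC| over 2 and an adjusted p under 0.05, or under 0.25 where carboplatin was compared with no carboplatin. The difference between carboplatin effects had no limit on log2FC. The SE was derived from log2FC and its F value. Normalized counts are counts rescaled to the mean TMM-adjusted library size. Whether replicate numbers pair the samples was checked on deviations from group means over all tested genes. Same-numbered samples correlated at 0.20 to 0.61 in the 7 comparisons of groups, above 0.1 in every pair, so they were taken as paired from the data, not from the labels. Blocked values are given where they change a call or the reading of an interval.

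The members and gene lists were chosen with earlier results of these data known. Named genes were the members, the 5 tested genes most like Csta2 and Stfa3 by each of the measures of likeness, and list genes past the test, with at most the 4 largest log2FC where more were called. Alternatives were RLE factors, library size alone, no filter, DESeq2 1.42.0, fits of only the groups compared, the replicate block, a prior count of 2 and leaving out each replicate. Identities came from global alignments in Biopython 1.88. Promoters are those of RefSeq (GRCm38.p6), placed on GRCm39 by exact match. A gene of the protease inhibitor list is counted in its totals but not reported here by name. The test scripts were checked on simulated counts.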

Additional observations from a re-analysis of the deposited data

Results flagged for a closer look

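Csta2 and Stfa3 were flagged because carboplatin moved each of them one way in LPS-primed BMDMs and the other way in LPS-tolerant BMDMs in every same-numbered pair. The log2FC of carboplatin in LPS-tolerant minus that in LPS-primed BMDMs was -1.19 for Csta2 and -1.78 for Stfa3. The upward side was small, with a pair ratio as low as 1.02 for Csta2, and the test of the difference itself did not pass in the edgeR fit of all 18 samples, with or without the replicate block. It passed only with the block over the 12 primed samples (adjusted p = 0.167 for Csta2 and 0.041 for Stfa3, at a limit of 0.25), a fit added after the data were seen.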

How the results depend on the processing

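Over 43 results and 741 alternative settings, 640 values kept direction and side of the threshold, 15 passed it newly, 15 turned sign, and 71 counts or values moved. For the contrasts that had chosen the genes, only the log2FC of the members is described, since a call there was favoured by the choice. In LPS-primed against unstimulated BMDMs it ran from 7.53 to 11.72 for Csta2 and from 5.78 to 10.31 for Stfa3. In LPS-tolerant against LPS-stimulated BMDMs it ran from 7.32 to 9.19 and from 7.61 to 11.88. In LPS-tolerant against LPS-primed BMDMs the number of members called was 0. Under the replicate block over 18 samples, over 12 samples and over the groups compared, that number was 1 (Stfa3). With the block and a replicate left out it was 0 to 1. In LPS-stimulated against unstimulated BMDMs it was 0, and 1 (Csta2, adjusted p = 0.0161 by edgeR) with the block and without number 1. For the difference between carboplatin effects it was 0, and 2 with the block over 12 samples or the groups compared, which are the same samples. Outside the contrasts that had chosen the genes, the block changed no other call of a member. The cause of these changes was not tested.

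For carboplatin in LPS-primed BMDMs, log2FC ran from -0.65 to 1.32 for Csta2 and from -1.26 to 1.91 for Stfa3 as single replicates were left out. It turned negative without LPS-primed replicate 2 (-0.24 and -0.26), without LPS-primed replicate 3 (-0.11 and -0.0095) and without replicate 1 of the carboplatin group. Those fits had no replicate block. In the 6 settings with the block it stayed positive, at 0.21 to 0.52 for Csta2 and 0.28 to 0.57 for Stfa3. For tolerant against primed BMDMs that both had carboplatin, it ran from -0.59 to 0.85 for Csta2 and from -0.81 to 1.82 for Stfa3, and was -0.047 for Csta2 with library size alone. Calls over all genes moved by over 1.5 times as well. They went from 77 to between 12 and 118 for LPS-tolerant against LPS-primed BMDMs, from 30 to between 9 and 65 for carboplatin in LPS-primed, from 44 to between 6 and 91 for carboplatin in LPS-tolerant, from 30 to between 6 and 64 for tolerant against primed with carboplatin, and from 0 to at most 7 for the difference. Fits with a number left out, with the block over 12 samples or the groups compared, and with the block and a replicate left out were added after the data were seen. With 0 to 4 reads in unprimed samples, depth limits any fold change against them.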
